A study of Mus musculus with 12 samples.

Results

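The 42 genes described here encode the protein machinery of apoptosis, necroptosis and pyroptosis, the main routes of regulated cell death. They were taken by symbol from the 54232 Ensembl gene IDs of a raw count table of whole mouse liver, and each symbol matched 1 ID. Sorted by route, 27 belong to apoptosis, 4 to necroptosis and 11 to pyroptosis. All 42 passed the filter on low counts that left 14168 genes to be tested, so no member was lost to low expression.

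In apoptosis, BH3-only proteins set free or activate the pore formers of the mitochondrial membrane, anti-apoptotic BCL2 proteins hold both in check, and released cytochrome c assembles the apoptosome that activates caspase-9. Death receptors at the cell surface reach the executioner caspases through an adaptor and caspase-8. Necroptosis runs from the RIP kinases to the membrane-breaking pseudokinase MLKL, and pyroptosis from inflammasome sensors and inflammatory caspases to gasdermin pores. Hepatocyte death is a hallmark of alcohol-associated liver disease. The values below are mRNA levels. Cleavage of caspases or gasdermins and phosphorylation of MLKL, which switch these proteins on, were not measured.

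The mice were male C57BL6/J animals (age label 8-week) of an intragastric feeding model of alcohol-associated steatohepatitis (ASH). The 5 pair-fed (PF) mice received an isocaloric high-fat liquid diet, and the 7 alcohol-fed (AF) mice received the high-fat liquid diet with ethanol, raised to 27 g/kg/day, and a weekly binge of 5 g/kg. Feeding lasted 8 weeks, per the study's methods the mice also ate a solid Western diet rich in cholesterol and saturated fat, and livers were taken one day after the last binge. Regular chow is named as another option for the weeks before intragastric feeding, with no group given for it. Each mouse gave 1 library.

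Each library held 24129900 to 30578639 reads on genes. On the first principal component, which held 59.9% of the variance, PF livers lay between −73.3 and −52.5 and AF livers between −7.73 (AF6) and 83.9 (AF1), so AF6 was the AF liver nearest to the PF group on it. On the second (9.87%), AF6 (−50.9) and AF7 (−40.2) lay apart from the other 10 livers (−8.50 to 23.3). TMM scaling factors were 0.832 to 0.901 for PF livers and 0.880 to 1.36 for AF livers. Levels are given below as CPM, the reads of a gene scaled to a common library size with these factors. Changes are log2 fold changes of AF over PF with their standard error (SE) and the Benjamini-Hochberg adjusted p of edgeR's quasi-likelihood test over all 14168 genes. In whole tissue, fewer cells of a type and less RNA per cell cannot be told apart.

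Alcohol feeding moved these genes in both directions. Of the 42 members, 17 were higher in AF livers at an adjusted p below 0.05, 5 were lower and 20 did not pass. Scaled by library totals in place of TMM factors, 24 were higher and 1 lower, where 45.6% of all genes were higher and 6.62% lower. With TMM factors, 22.0% of all genes tested were higher and 17.8% lower, against 40.5% and 11.9% of the members. The median log2 fold change of the members was 0.19 and that of all genes 0.04. The median size of the change, whatever its sign, was 0.56 for the members and 0.35 for all genes. In 5 members (Bcl2l11, Bak1, Tnfrsf12a, Mlkl and Gsdme) every AF liver lay above every PF liver, and in 3 (Casp9, Nlrp6 and Gsdmd) every AF liver lay below. These are 11.9% and 7.14% of the members, and the same shares over all genes tested were 8.20% and 9.49%.

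By route, 8 of 27 apoptosis genes were higher and 3 lower (median log2 fold change 0.12). Of 4 necroptosis genes, 2 were higher and the others did not pass (0.45). Pyroptosis had 7 of 11 higher and 2 lower (0.94). The routes were compared by these counts alone, and a difference between them was not tested.

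**Figure D1:**
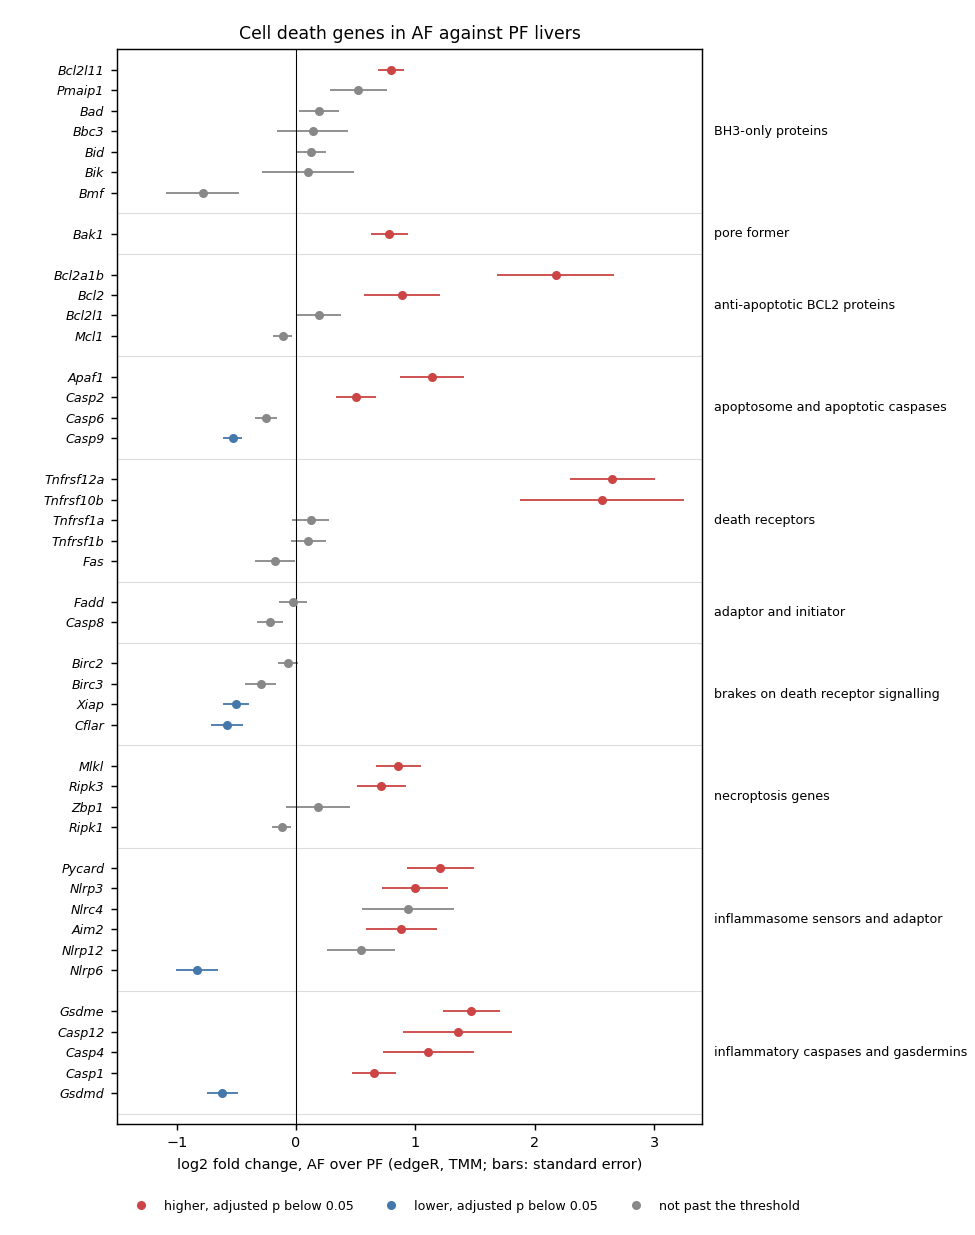
Log2 fold change of AF over PF livers for the 42 cell death genes, grouped by role, with the standard error as a bar and the call of edgeR's quasi-likelihood test as the colour. The largest changes are those of the receptors Tnfrsf12a (2.65) and Tnfrsf10b (2.56), and the lowest value is that of Nlrp6 (−0.83).

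Among the surface receptors, the receptor of the cytokine TWEAK and the mouse TRAIL receptor rose while the TNF receptors and Fas did not pass the test. Tnfrsf12a (ENSMUSG00000023905, chr17:23675445-23677468, minus strand, GRCm38) encodes Fn14, the TWEAK receptor. Its level was 3.59, 3.25, 4.00, 4.76 and 3.98 CPM in the PF livers and ran from 12.04 over a median of 20.3 to 59.9 CPM in the AF livers. No AF liver came near the PF range, and AF1 stood far above the other AF livers. The fold change was 2.65 (SE 0.36, adjusted p = 1.8e-04, exact two-sided permutation p = 0.00126, the smallest that 792 splits allow), and it was 2.26 without AF1.

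Tnfrsf10b (ENSMUSG00000022074, chr14:69767472-69784411, plus strand) encodes the death receptor of TRAIL in the mouse. PF livers had 1.67, 0.274, 0.375, 0.669 and 0.814 CPM, which rested on 6 to 34 reads per library, and AF livers 0.558 to 9.28 CPM with a median of 5.00. The groups overlapped, since AF6 and AF7 lay within the PF range while the other AF livers lay above it. It rose by 2.56 on the log2 scale (SE 0.69, adjusted p = 0.0106, exact permutation p = 0.0215), and limma-voom did not call it (adjusted p = 0.0638).

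The receptors with the higher levels did not pass the test. Per kilobase of exon, Tnfrsf1a, which encodes the main TNF receptor, was the receptor with the highest level in PF livers at 35.9 ± 4.08 CPM per kilobase (SD, n = 5), followed by Fas (17.1 ± 2.66), which encodes the receptor of Fas ligand, and Tnfrsf1b (14.8 ± 2.33), which encodes the other TNF receptor. Fas and Tnfrsf1b differed by about their SD, so their order is uncertain. Tnfrsf1a had 109.8, 96.1, 84.0, 89.8 and 85.1 CPM in PF livers and 79.2 to 151 CPM (median 90.3) in AF livers, with AF6 far above the others. Its log2 fold change was 0.12 (adjusted p = 0.548), that of Tnfrsf1b 0.10 (0.601) and that of Fas −0.18 (0.423).

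Downstream of the receptors, neither the adaptor nor the initiator caspase passed the test. Fadd, the adaptor that joins the receptor to caspase-8, was at 9.04 to 12.2 CPM in PF and 7.60 to 11.96 CPM in AF livers (log2 fold change −0.02, adjusted p = 0.889), and its exons share 239 bases with Faddos on the other strand. Casp8, the initiator caspase, had 36.7, 40.2, 43.6, 36.7 and 39.1 CPM in PF livers and 25.6 to 43.0 CPM (median 33.8) in AF livers. Of the 7 AF livers, 5 lay below the lowest PF liver and AF6 was the highest. Its change of −0.22 (SE 0.11) did not pass (adjusted p = 0.133) and passed when AF6 was left out (−0.28, adjusted p = 0.0291).

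Of the 4 inhibitors of this branch, Cflar and Xiap fell. Cflar, which encodes the caspase-8 decoy c-FLIP, had 102, 155, 111, 161 and 145 CPM in PF and 73.0 to 103 CPM (median 89.4) in AF livers. The groups met at their edges only, with 5 of 7 AF livers below the lowest PF liver. It fell by 0.58 on the log2 scale (SE 0.14, adjusted p = 0.0055). Xiap, an inhibitor of the apoptotic caspases encoded on the X chromosome, had 120.2, 138, 135, 149 and 133 CPM in PF and 81.6 to 122 CPM (median 90.5) in AF livers. All AF livers but AF5 were below the lowest PF liver, and the decrease was 0.50 (SE 0.11, adjusted p = 0.00356). Birc3 (cIAP2) had 24.3, 25.6, 29.8, 26.9 and 29.5 CPM in PF livers and 16.8 to 29.8 CPM (median 22.8) in AF livers, which is a change of −0.30 (adjusted p = 0.0883) that passed only when AF4 was left out (−0.38, adjusted p = 0.0234). Birc2 (cIAP1) had 29.8 to 33.9 CPM in PF and 25.6 to 35.8 CPM in AF livers (−0.07, adjusted p = 0.544).

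In the mitochondrial branch, 1 of 7 BH3-only genes passed the test. Bcl2l11 (ENSMUSG00000027381, chr2:128126038-128162547, plus strand), which encodes BIM, a direct activator of the pore formers, had 6.74, 7.37, 5.58, 7.16 and 5.84 CPM in PF and 9.79 to 13.5 CPM (median 11.6) in AF livers. The groups did not overlap, and AF6, at 10.4 CPM, lay with the other AF livers. Its log2 fold change was 0.80 (SE 0.11, adjusted p = 2.17e-04, exact permutation p = 0.00126). Bid, which links caspase-8 to the mitochondria, had 18.01, 18.8, 18.3, 14.9 and 15.6 CPM in PF and 15.4 to 22.4 CPM (median 19.5) in AF livers, 0.13 on the log2 scale (adjusted p = 0.406), and its exons share 628 bases with Bcl2l13.

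Pmaip1, which encodes NOXA, and Bmf, a BH3-only gene linked to the cytoskeleton, lay near the threshold on opposite sides of 0. Pmaip1 had 2.56, 1.78, 2.79, 3.46 and 3.17 CPM in PF and 2.27 to 5.71 CPM (median 3.81) in AF livers, which is a change of 0.52 (adjusted p = 0.0935) that passed without AF6 (0.62, adjusted p = 0.0295). Bmf had 13.6, 18.8, 7.29, 8.14 and 9.64 CPM in PF livers and 2.42 to 9.17 CPM (median 7.57) in AF livers, −0.78 (adjusted p = 0.0554). PF1 and PF2 were high for Bmf and AF6 was low, and 4 AF livers lay within the PF range. Bmf passed under 4 of 23 alternatives, namely DESeq2, RLE factors and the fits without PF3 or AF6, with an adjusted p of 0.0414 to 0.178 over the fits that left out 1 library. The remaining BH3-only genes were Bad (0.19, adjusted p = 0.383), which shares 524 exonic bases with Gpr137, Bbc3, which encodes PUMA (0.14, adjusted p = 0.737), and Bik (0.10, adjusted p = 0.856). Bik and Bbc3 rested on 15 to 39 reads per PF library, so small changes were not detectable at this depth.

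The pore former Bak1 (ENSMUSG00000057789, chr17:27019810-27029009, minus strand) opens the outer mitochondrial membrane. It had 9.79, 6.04, 8.67, 8.18 and 7.19 CPM in PF and 10.2 to 16.4 CPM (median 14.8) in AF livers. The lowest AF liver, AF6, was just above the highest PF liver. Bak1 rose by 0.78 (SE 0.15, adjusted p = 0.0018, exact permutation p = 0.00126). Bak1 shares up to 437 exonic bases with an annotated Ggnbp1 gene on the other strand, and whether the reads were counted by strand is not stated.

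The 4 anti-apoptotic BCL2 genes among the members divided by level. Outside the members this did not hold. Bcl2l2, named outside the rule for the other genes of the routes, had 5.30 CPM per kilobase in PF livers, close to the member Bcl2l1 (5.43). It was higher in AF livers (log2 fold change 0.32, SE 0.09, adjusted p = 0.012). Mcl1, a short-lived guardian that hepatocytes depend on, had the highest level of the 42 members per kilobase of exon, 53.6 ± 2.98 CPM per kilobase in PF livers (SD, n = 5), and did not pass the test, with 195, 187, 167, 184 and 182 CPM in PF and 148 to 179 CPM (median 174) in AF livers (log2 fold change −0.11, adjusted p = 0.271). Bcl2l1, which encodes BCL-XL, had 19.6 to 28.9 CPM in PF and 18.6 to 43.9 CPM in AF livers (0.19, adjusted p = 0.434). Within each library, the ratio of the pro-apoptotic Bcl2l11 to Mcl1 per kilobase needs no scaling between libraries. On the log2 scale it lay between −6.19 and −5.90 in PF and between −5.39 and −4.91 in AF livers. That pair was picked after the values were seen, so no test was made.

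The remaining pair of anti-apoptotic members rose from low levels. Bcl2a1b (ENSMUSG00000089929), a copy of the A1 gene known from blood cells, had 0.738, 0.412, 0.500, 0.669 and 1.76 CPM in PF livers (9 to 39 reads) and 1.12 to 6.05 CPM (median 4.00) in AF livers. PF5 stood above the other PF livers, and AF6 alone of the AF livers lay within the PF range. Bcl2a1b rose by 2.17 (SE 0.49, adjusted p = 0.00413). Its near-identical copies Bcl2a1a and Bcl2a1d can share its reads, as can Gm29094, which overlaps it, so the value of each copy is uncertain, and both were also higher (1.73, adjusted p = 0.0039, and 2.27, adjusted p = 0.0141). Bcl2, the founding anti-apoptotic gene of the family, had 1.77, 1.78, 2.83, 3.74 and 2.58 CPM in PF and 2.197 to 8.45 CPM (median 4.76) in AF livers. Only 4 of 7 AF livers exceeded the highest PF liver. Its change of 0.89 (SE 0.32, adjusted p = 0.0401) lost its call when any 1 of 8 libraries (PF1, PF2, PF3, PF5, AF1, AF3, AF4 or AF5) was left out, with an adjusted p of 0.0123 to 0.096, and its exons share 558 bases with D630008O14Rik.

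The apoptosome genes moved apart. Apaf1, the scaffold of the apoptosome, had 6.40, 3.29, 7.13, 7.28 and 7.56 CPM in PF and 6.18 to 18.6 CPM (median 14.9) in AF livers. PF2 was low, AF6 lay within the PF range, and the other 6 AF livers lay above it. Apaf1 rose by 1.14 (SE 0.27, adjusted p = 0.00545). Casp9 (ENSMUSG00000028914, chr4:141793612-141815976, plus strand), the caspase that Apaf1 activates, had 27.1, 28.4, 29.1, 23.99 and 26.5 CPM in PF and 16.6 to 20.5 CPM (median 18.1) in AF livers. Every AF liver was below every PF liver, AF6 being the lowest, and the decrease was 0.53 (SE 0.08, adjusted p = 3.94e-04, exact permutation p = 0.00126). Exons of Casp9 share 94 bases each with Cela2a and Ctrc. The log2 ratio of Apaf1 to Casp9 per kilobase lay between −3.91 and −2.52 in PF and between −2.23 and −0.82 in AF livers, a description of a pair chosen after the values were seen.

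Casp2, a caspase of the DNA damage response, had 8.12, 6.73, 6.96, 7.75 and 8.69 CPM in PF and 6.48 to 13.1 CPM (median 11.5) in AF livers. AF6 was below every PF liver and the other AF livers above them all. The log2 fold change of 0.50 (SE 0.16, adjusted p = 0.0278) lost its call without any 1 of 6 libraries (PF2, PF3, PF4, AF1, AF2 or AF3, adjusted p of 0.00198 to 0.0694). Casp6, an executioner caspase, had 17.2, 17.6, 14.8, 14.9 and 16.9 CPM in PF and 11.7 to 15.8 CPM (median 13.5) in AF livers. Of the 7 AF livers, 5 lay below the lowest PF liver, and the change of −0.25 (SE 0.10) missed the threshold (adjusted p = 0.0503) and passed under 7 of 23 alternatives, among them DESeq2 and the fits without PF3 or AF7.

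**Figure D2:**
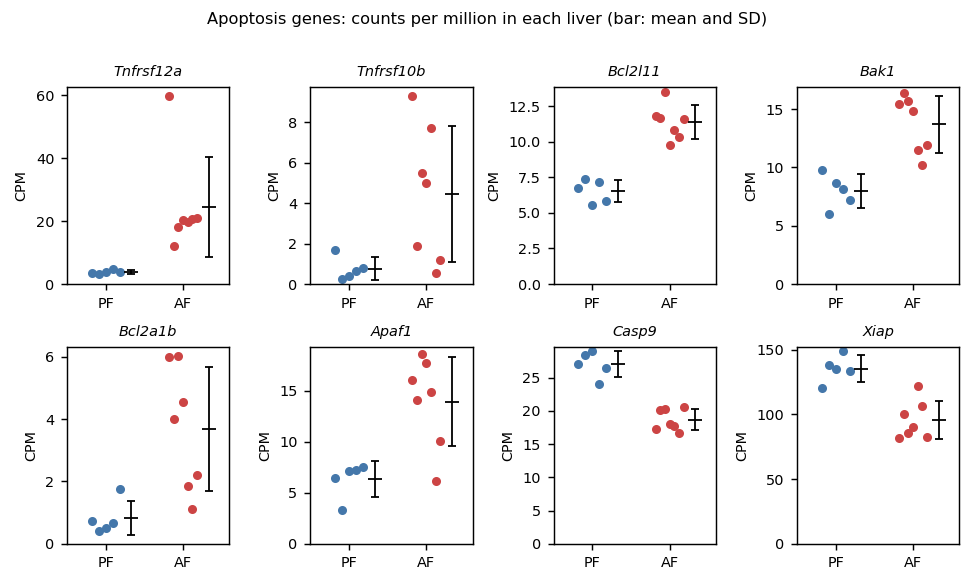
CPM in each of the 5 PF (blue) and 7 AF (red) livers for 8 apoptosis genes, with the mean and SD as a black bar and each vertical axis from 0. Tnfrsf12a, Bcl2l11 and Bak1 separate the groups upward and Casp9 downward, whereas in Tnfrsf10b and Apaf1 an AF liver lies within the PF range.

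Of the necroptosis genes, Mlkl and Ripk3 rose, and Ripk1 and Zbp1 did not pass the test. Mlkl (ENSMUSG00000012519, minus strand), which encodes the pseudokinase that breaks the plasma membrane, had 9.74, 5.81, 10.1, 9.32 and 11.5 CPM in PF and 11.5 to 21.02 CPM (median 16.7) in AF livers. The groups did not overlap, but the lowest AF liver, AF7, was almost level with PF5. The log2 fold change was 0.86 (SE 0.19, adjusted p = 0.00394, exact permutation p = 0.00253). Ripk3, which encodes the kinase that phosphorylates MLKL, had 3.396, 3.20, 2.96, 3.26 and 4.25 CPM in PF and 3.87 to 8.08 CPM (median 5.00) in AF livers. AF5 and AF6 lay below PF5 and the other AF livers above it, for a change of 0.72 (SE 0.21, adjusted p = 0.015).

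Ripk1, the upstream kinase that TNF receptors engage, had 53.0, 53.7, 51.2, 52.1 and 50.5 CPM in PF and 40.9 to 56.6 CPM (median 47.8) in AF livers. Of the 7 AF livers, 6 lay below the PF range and AF6 above it, and the log2 fold change of −0.12 did not pass (adjusted p = 0.244). Ripk1 shares exon bases with Serpinb6a (241) and a further gene model, which limits its value. Zbp1, a sensor of Z-form nucleic acid that recruits RIPK3, was at 10.3 to 17.5 CPM in PF and 9.41 to 30.1 CPM in AF livers (0.18, adjusted p = 0.611), with AF2 the highest.

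Of the 6 inflammasome sensors and adaptor, 3 were higher and 1 lower. Pycard, which encodes the adaptor ASC that joins sensors to caspase-1, had 2.95, 1.78, 2.08, 2.24 and 2.40 CPM in PF and 2.34 to 8.02 CPM (median 5.91) in AF livers. AF6 lay within the PF range and the other 6 AF livers above it, with a log2 fold change of 1.21 (SE 0.28, adjusted p = 0.00475). Pycard shares 485 exonic bases with Gm45205 on the other strand. Nlrp3, the sensor of membrane damage and crystals, had 1.82, 2.29, 2.38, 3.38 and 1.81 CPM in PF and 2.74 to 7.44 CPM (median 3.91) in AF livers. AF2 and AF3 were the highest, AF5 and AF6 lay below PF4, and the change was 1.00 (SE 0.28, adjusted p = 0.0132).

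Aim2, a sensor of cytosolic DNA, had 2.85, 1.65, 3.46, 2.00 and 3.26 CPM in PF and 1.90 to 7.26 CPM (median 4.57) in AF livers. AF6 lay within the PF range and the other AF livers above it. Its log2 fold change of 0.88 (SE 0.30, adjusted p = 0.0311) lost its call when any 1 of 5 libraries was left out (PF2, PF4, AF2, AF3 or AF4, adjusted p of 0.00361 to 0.0794). Nlrc4, the sensor that acts with NAIP proteins on bacterial flagellin, had 0.886, 0.824, 1.12, 1.57 and 1.31 CPM in PF and 0.633 to 3.98 CPM (median 2.18) in AF livers. AF6 was the lowest liver of all, and the change of 0.94 (SE 0.39, adjusted p = 0.069) passed when AF6 (adjusted p = 0.0124) or AF7 was left out.

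Nlrp6 went the other way. It encodes a sensor known from the intestinal epithelium and also made in liver, and at 17.7 ± 2.35 CPM per kilobase (SD, n = 5) it had the highest level of the sensors in PF livers. Its levels (ENSMUSG00000038745, chr7:140920902-140929192, plus strand) were 77.3, 107, 95.6, 85.5 and 82.7 CPM in PF and 29.7 to 70.7 CPM (median 49.6) in AF livers. No AF liver reached the PF range, and AF1 was the lowest. It fell by 0.83 (SE 0.18, adjusted p = 0.00322, exact permutation p = 0.00253). Nlrp12, a sensor of myeloid cells reported to restrain inflammation, was at 21.4 to 47.4 CPM in PF and 30.0 to 83.8 CPM in AF livers, with AF6 and AF7 above the rest (0.55, adjusted p = 0.142), and several microRNA genes overlap its exons. The log2 ratio of Nlrp3 to Nlrp6 per kilobase, again a pair chosen after the values were seen, lay between −5.23 and −4.34 in PF and between −3.89 and −2.37 in AF livers.

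All 5 genes for inflammatory caspases and gasdermins passed the test, 4 higher and 1 lower, and the pore-forming gasdermins moved in opposite directions. Gsdme (ENSMUSG00000029821, chr6:50188888-50263862, minus strand) encodes a gasdermin that can turn apoptosis into lytic death. It had 2.21, 0.869, 1.88, 1.77 and 1.85 CPM in PF livers (19 to 45 reads) and 2.98 to 6.50 CPM (median 4.68) in AF livers. Every AF liver was above every PF liver, with AF6 the lowest and PF2 the lowest of the PF livers. The log2 fold change was 1.47 (SE 0.24, adjusted p = 6.4e-04, exact permutation p = 0.00126).

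Gsdmd (ENSMUSG00000022575, chr15:75862327-75867408, plus strand), the gasdermin cut by caspase-1 and caspase-11, had 47.9, 36.2, 41.2, 37.8 and 43.1 CPM in PF and 19.6 to 33.8 CPM (median 26.6) in AF livers. All AF livers lay below the PF range, AF5 being the lowest. It fell by 0.62 (SE 0.13, adjusted p = 0.003, exact permutation p = 0.00253). Per kilobase of exon, Gsdmd remained far above Gsdme in every liver, at 17.4 ± 1.94 against 0.135 ± 0.0395 CPM per kilobase in PF livers (SD, n = 5). The log2 ratio of Gsdme to Gsdmd lay between −7.80 and −6.84 in PF and between −5.52 and −4.02 in AF livers, also a pair chosen after the values were seen.

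The 3 inflammatory caspase genes lie side by side on chr9:5298517-5373032 (GRCm38, plus strand), within 74516 bases, and all 3 were higher. The 250 bases before the RefSeq start of each are shown because these neighbours rose together, with Bcl2a1b, elsewhere on the same chromosome, added as the member whose window held 2 of the motifs searched. Capitals mark a motif.
Casp1: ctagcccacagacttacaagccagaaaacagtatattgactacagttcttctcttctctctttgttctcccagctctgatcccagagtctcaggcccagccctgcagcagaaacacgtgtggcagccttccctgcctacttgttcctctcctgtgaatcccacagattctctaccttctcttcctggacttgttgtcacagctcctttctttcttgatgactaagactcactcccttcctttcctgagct
Casp4: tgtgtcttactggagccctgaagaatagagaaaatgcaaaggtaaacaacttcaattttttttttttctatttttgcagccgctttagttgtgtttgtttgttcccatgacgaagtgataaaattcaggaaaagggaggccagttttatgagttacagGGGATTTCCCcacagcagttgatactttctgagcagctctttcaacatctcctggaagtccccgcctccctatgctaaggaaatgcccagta
Casp12: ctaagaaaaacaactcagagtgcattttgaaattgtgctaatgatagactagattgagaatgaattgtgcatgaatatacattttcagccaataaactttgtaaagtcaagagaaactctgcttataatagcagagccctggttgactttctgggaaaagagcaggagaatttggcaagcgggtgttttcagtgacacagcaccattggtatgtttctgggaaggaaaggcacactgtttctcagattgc
Bcl2a1b: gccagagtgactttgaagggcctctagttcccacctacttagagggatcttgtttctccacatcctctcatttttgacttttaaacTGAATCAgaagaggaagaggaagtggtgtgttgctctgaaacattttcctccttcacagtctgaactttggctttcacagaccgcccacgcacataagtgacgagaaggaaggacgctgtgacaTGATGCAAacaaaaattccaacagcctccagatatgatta
The windows are chr9:5298267-5298516, chr9:5308599-5308848, chr9:5345226-5345475 and chr9:89199023-89199272 in the same order, all on the plus strand, from RefSeq (GRCm38.p6), read 5′ to 3′.

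Motifs were searched on both strands in windows of 250 bases before to 50 after each start, which were found for 37 of the 42 members (51 windows). A short NF-kappaB motif stood in the window of Casp4, with its leftmost base 92 bases before the start, and in 1.20% of all 32851 windows. The AP-1 letters TGANTCA stood in the windows of Bcl2a1b (164 bases before the start), Fas and Nlrp6, and in 7.81% of all windows. The CHOP and ATF4 letters TGATGNAA stood in those of Bcl2a1b (40 bases before) and Nlrp3, and in 3.97% of all windows. The interferon-stimulated response element stood in the windows of Cflar, Ripk1 and Tnfrsf1b (3.44% of all), and the letters TGACGTCA, bound by ATF and CREB proteins, in that of Birc2 (1.79% of all). The motifs did not overlap each other in the Bcl2a1b window. Members with a motif moved in both directions, and a match of letters is not a measured binding site.

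Casp1, which encodes the caspase that matures interleukin-1β and interleukin-18, had 6.89, 5.54, 7.34, 7.08 and 7.33 CPM in PF and 6.86 to 14.3 CPM (median 11.3) in AF livers. AF7 lay within the PF range, AF6 just above it, and PF2 below the other PF livers. Casp1 rose by 0.65 (SE 0.19, adjusted p = 0.0144). Casp4, which encodes the mouse caspase-11 that binds bacterial lipopolysaccharide, had 4.53, 3.34, 3.75, 4.17 and 6.61 CPM in PF and 4.29 to 22.3 CPM (median 7.16) in AF livers. AF4 was the highest by far, and 5 of 7 AF livers exceeded the highest PF liver. Its change of 1.11 (SE 0.38, adjusted p = 0.0328) was 0.76 without AF4.

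Casp12, which encodes a caspase of the endoplasmic reticulum, had 2.71, 2.01, 2.12, 3.81 and 5.43 CPM in PF and 2.75 to 15.4 CPM (median 7.29) in AF livers. AF1 and AF4 were the highest, while AF2, AF6 and AF7 lay within the PF range. Its change was 1.35 (SE 0.46, adjusted p = 0.031), and the exact permutation p was 0.0518. Casp4 and Casp12 each lost their call when any 1 of 6 libraries (PF1 to PF4, AF1 or AF4) was left out, with an adjusted p of 0.0162 to 0.0779 for Casp4 and 0.0112 to 0.0758 for Casp12.

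**Figure D3:**
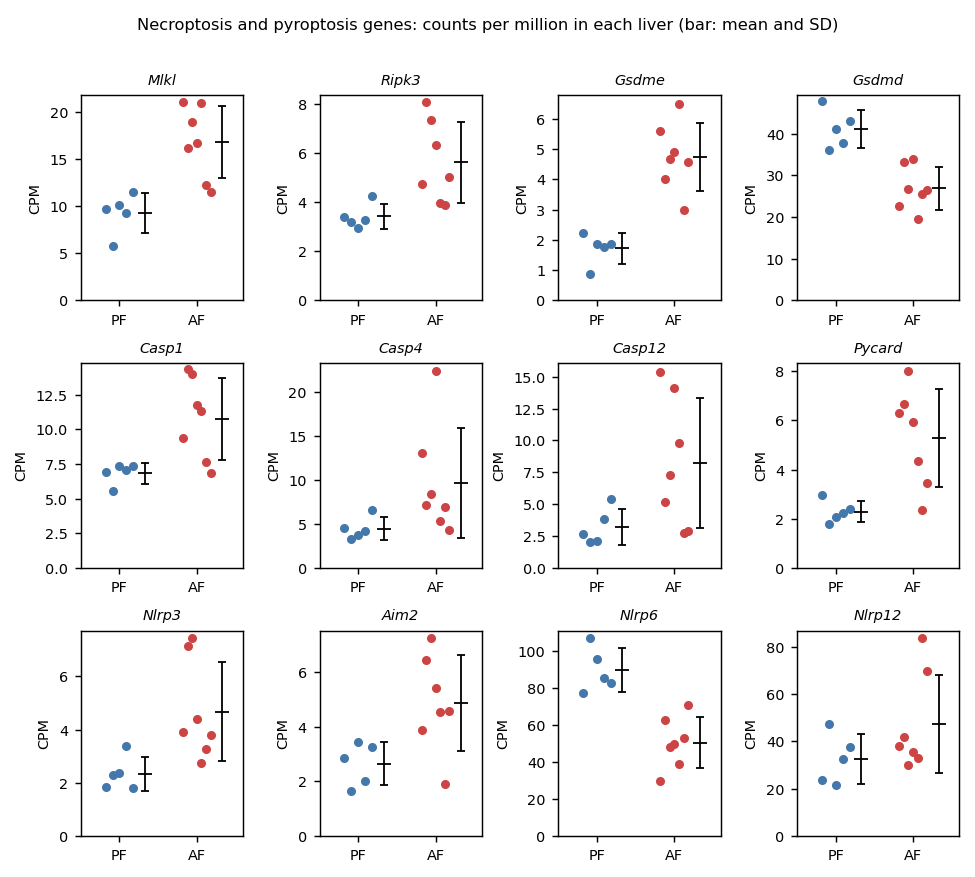
CPM in each PF (blue) and AF (red) liver for 12 necroptosis and pyroptosis genes, with the mean and SD as a black bar and each vertical axis from 0. Mlkl and Gsdme separate the groups upward, Gsdmd and Nlrp6 downward, and the AF values of Casp4 and Casp12 spread from within the PF range to 22.3 and 15.4 CPM.

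Livers differed within the AF group. AF6 was the lowest AF liver in 11 of the 17 members called higher (64.7%), and in 50.5% of the 3116 genes called higher over the whole table. The highest AF liver was AF3 in 6 of the 17 (35.3%) and AF1 in 5 (29.4%), and over the 3116 genes it was AF3 in 24.4% and AF1 in 37.5%. Without AF6, 19 members were called higher and 7 lower, with 25.3% and 20.7% of all genes. Without AF7, 18 were higher and 6 lower, with 21.9% and 17.8% of all genes. Among the 5 lower members, the highest AF liver was AF4, AF5 or AF7, while AF6 was the highest AF liver in 37.95% of the 2519 genes called lower over the whole table.

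**Figure D4:**
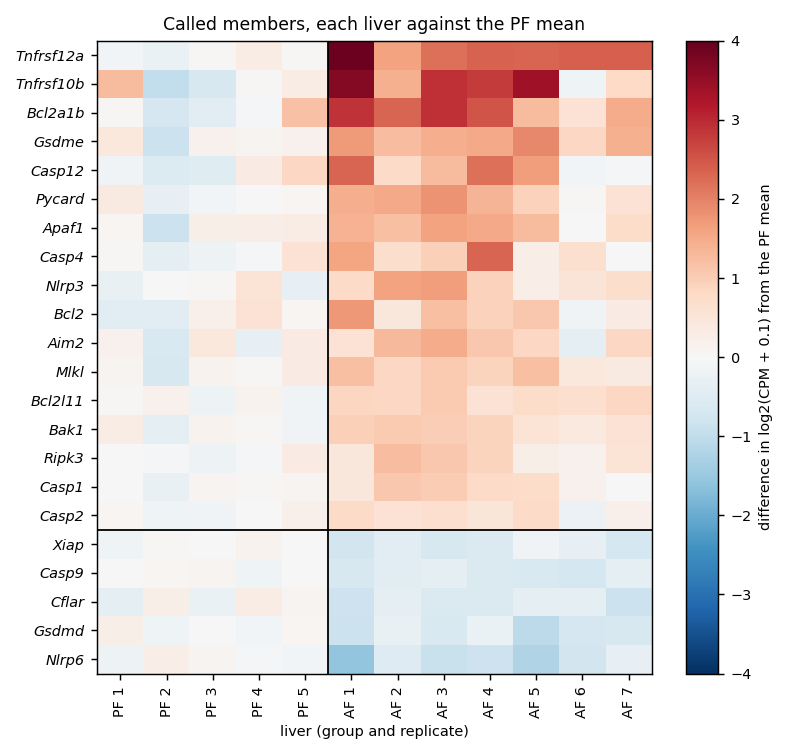
Difference of each liver from the PF mean, in log2(CPM + 0.1), for the 22 members called, with the 17 higher above the line and the 5 lower below it. The AF6 column is paler than the other AF columns in many of the higher rows but not in Tnfrsf12a.

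Marker genes of several cell types moved with these members. The summed level of 8 recruited macrophage markers spanned 134 to 398 CPM in PF livers and 235 (AF6) to 1662 CPM (AF1) in AF livers, with 4 of 8 called higher. Spp1, which did not pass (adjusted p = 0.0635), made up 46.4 to 239 and 64.9 to 1048 CPM of these sums. Those called were Cd68, Adgre1, Gpnmb and Trem2. Ccr2 (log2 fold change 0.455, adjusted p = 0.266) and Itgam (0.77, adjusted p = 0.103) did not pass. Ly6c2 went the other way without passing (−0.84, adjusted p = 0.219). Kupffer cell markers rose as well (4 of 5 higher, 574 to 778 CPM in PF and 776 to 2376 CPM in AF livers), as did stellate cell markers (4 of 6, 42.7 to 113 and 89.3 to 206 CPM). Reln, which did not pass (adjusted p = 0.119), had 22.2 to 73.1 and 44.9 to 87.3 CPM of the stellate cell sums. Acta2 did not pass either (adjusted p = 0.0599). Of the bile duct markers, 4 of 5 were called higher (49.5 to 244 and 70.3 to 1090 CPM), but most of that sum was again Spp1, which is in both lists. Of the hepatocyte markers, 2 of 7 were called lower (96360 to 142800 CPM in PF and 46940 to 102300 CPM in AF livers), and most of that sum was Alb (73640 to 110900 and 37150 to 83940 CPM), which did not pass (adjusted p = 0.164). The 7 neutrophil markers did not pass (53.4 to 758 CPM, PF1 the highest, and 47.1 to 175 CPM, adjusted p of 0.0584 to 0.927), and T and NK cell markers were lower in 1 of 7 tested (8.23 to 14.6 and 3.87 to 7.16 CPM). That marker was Cd4, with a mean of 3.74 CPM in PF and 0.949 CPM in AF livers, a large part of the difference between these sums. The 4 B cell markers did not pass either (2.36 to 6.38 and 1.11 to 3.46 CPM, adjusted p of 0.0676 to 0.187), and endothelial markers were higher in 1 of 5 (112 to 245 and 151.6 to 249.5 CPM). No marker was at 0 in all libraries. The part of these cell types in the changes was not tested.

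Scaling decided the calls of 4 of the 5 lower members. With library totals in place of TMM factors the median log2 fold change of all genes was 0.40 instead of 0.04, a shift of 0.36. Relative to that median the values of the members moved little, for example Casp9 at −0.57 under both scalings and Gsdme at 1.43 and 1.46. Tnfrsf10b (2.52 and 2.65) and Casp12 (1.31 and 1.41) moved further. As absolute changes, Cflar (−0.22), Casp9 (−0.17), Xiap (−0.15) and Gsdmd (−0.26) remained negative under library totals without passing the test, and Nlrp6 (−0.50, adjusted p = 0.00992) still passed it. All 17 higher members kept their call under library totals.

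**Figure D5:**
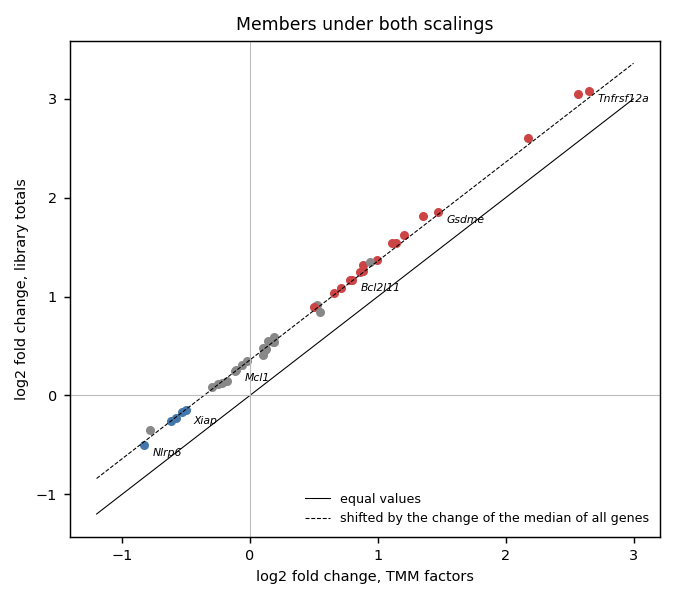
Log2 fold changes of the 42 members with TMM factors (horizontal) and with library totals (vertical), coloured by the TMM call (red higher, blue lower, grey not past). The points follow the dashed line, which is shifted by 0.36 from equal values, and the blue points other than Nlrp6 come close to 0 on the vertical axis.

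Other genes of these routes, listed by role and not by how they moved, were read from the same fit. Of 48, 45 could be tested, and 16 were higher (35.6%) and 8 lower (17.8%) in AF livers, against 22.0% and 17.8% of all genes tested. Among them, Bax, the partner of Bak1 in the mitochondrial pore, rose by 1.20 (SE 0.18, adjusted p = 4e-04), with 4.83 to 7.18 CPM in PF and 9.27 to 19.5 CPM in AF livers. Hrk, a BH3-only gene, rose by 3.05 (SE 0.64, adjusted p = 0.00279) from 1 to 8 reads per PF library. Tnf, the ligand of Tnfrsf1a, rose by 2.19 (SE 0.41, adjusted p = 0.00138) from 3 to 15 reads per PF library. Every AF liver (1.03 to 3.04 CPM) was above every PF liver (0.137 to 0.679 CPM) in Tnf.

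Of the cargo and regulators of the inflammasome, Il18 fell by 1.07 (SE 0.16, adjusted p = 3.17e-04), from 16.8 to 20.7 CPM in PF livers to 5.42 to 11.6 CPM in AF livers. Il1rn, which encodes the interleukin-1 receptor antagonist, rose by 1.71 (SE 0.31, adjusted p = 0.00115), and Card9, a signalling adaptor of myeloid cells, by 1.34 (SE 0.38, adjusted p = 0.0145). Il1b, singled out after its values were seen, did not differ by more than its spread (8.01 to 31.6 CPM in PF and 8.84 to 29.5 CPM in AF livers, −0.01, adjusted p = 0.98).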

How the data were processed

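RNA sequencing was performed on whole liver of 5 PF and 7 AF mice, 1 library per mouse. The authors isolated polyA RNA, made stranded TruSeq libraries and deposited raw counts of reads per gene without normalization. The submitters' processing notes name FastQC 0.10.1, TopHat2 2.0.13 and HTSeq 0.10.0 and the build GRCm38. The annotation and the strand setting of the counting are not given in the sources used here. Of 54232 gene IDs, 54165 were named through GENCODE M21, which also gave positions and exon lengths.

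Counts were analysed in R 4.3.3 with edgeR 4.0.16: TMM factors, filterByExpr by group, its quasi-likelihood test between the groups, with no covariate, on 14168 genes, and Benjamini-Hochberg adjustment over all of them at a threshold of 0.05. Single members were also compared by an exact two-sided permutation test of mean log2(CPM + 0.1) over all 792 splits. Alternatives used DESeq2 1.42.0, limma 3.58.1, other scalings and filters, the replicate block and each library left out. The steps were tested on simulated data.

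The members and lists were chosen with earlier results of these data known. All 42 members are named. Values of each PF library, with the lowest, median and highest of the AF libraries, are given in each role for up to 3 called members of largest change, the member of highest CPM and members whose call changed when 1 library was left out. The other genes of the routes are named where called with a log2 fold change of at least 1 in size, and those outside this rule are marked. No library was a repeat of another: over 31 pairs inside a group, the smallest difference was 21.1 times counting noise per gene. Depth limits genes of few reads, and the reads carry no molecular identifiers.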

Additional observations from a re-analysis of the deposited data

Results flagged for a closer look

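In 7 of 84 groups of values (42 members in each group of livers), 1 liver lay further from the others than Dixon's 95% limit, where chance gives about 1 in 20 groups, or 4.2. Among AF livers, AF1 was high for Tnfrsf12a (59.9 CPM, the next liver at 21) and Bbc3 (1.97 CPM, next 1.13), and AF6 was high for Tnfrsf1a (151 CPM, next 108). Among PF livers, PF5 was high for Bcl2a1b (1.76 CPM, next 0.738) and PF3 for Fas (44.9 CPM, next 34.0). PF2 was low for Apaf1 (3.29 CPM, next 6.40) and Casp1 (5.54 CPM, next 6.89).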

How the results depend on the processing

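Of the 23 alternatives, limma-voom called 11 members higher instead of 17, losing Aim2, Bcl2, Casp12, Casp2, Casp4 and Tnfrsf10b, with 18.5% of all genes higher and 18.2% lower. Library totals left 1 member lower instead of 5, and gave 25 higher and 5 lower among the other genes of the routes instead of 16 and 8. Under library totals, 45.6% of all genes were higher and 6.62% lower. Members with every AF liver below every PF liver were 0 instead of 3. That share of all genes was 9.49% with TMM factors and was not counted under library totals. Leaving out each library in turn gave 12 (without PF2, with 17.4% of all genes higher) to 19 members higher (without AF6, with 25.3%). It gave 5 to 7 members lower, with 14.7% (without PF2) to 20.7% (without AF6) of all genes lower. Among the other genes of the routes, the same fits gave 15 to 16 higher and 7 to 9 lower. Calls lost in this way were those of Bcl2, Casp2, Aim2, Casp4 and Casp12. The other 12 higher and all 5 lower members kept their call in all 12 such fits. Calls were gained by Casp6 and Nlrc4 under 7 alternatives each, by Pmaip1 under 5, by Bmf and Casp8 under 4 each, by Birc3 without AF4, and by Bad, Bid, Nlrp12, Tnfrsf1a and Tnfrsf1b under library totals. With the replicate block in replicates 1 to 5, 19 members were higher and 6 lower, with 23.9% and 20.8% of all genes. Without the block, the same 10 livers gave 19 and 7, with 25.8% and 22.1% of all genes. Same-numbered livers deviated together with correlations of −0.0749 to 0.117, and 2 of 5 matched best with their own number, so the numbers were not treated as pairs. No called change reversed its sign. Depth limits Tnfrsf10b (6 to 34 reads per PF liver), Gsdme (19 to 45), Bcl2a1b, Bbc3, Bik and Nlrc4, for which small differences were not detectable.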
